A study of Mus musculus with 46 samples.

Results

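The 53 genes described here are components of the Wnt pathway, taken by name from the 57067 genes listed in 2 tables of read counts from mouse synovial sarcomas. They were grouped by role into 19 Wnt ligands, 10 Frizzled receptors, 8 secreted inhibitors, 3 R-spondins, 4 transducers and 9 genes that beta-catenin switches on. Wnt ligands are secreted glycolipoproteins that bind Frizzled receptors, and canonical signalling then protects beta-catenin from the destruction complex that holds APC and AXIN2. Beta-catenin enters the nucleus, binds TCF and LEF factors and raises a set of genes that include its own brakes, so these target genes serve as a readout of the pathway. Other ligands, of which Wnt5a is the best known, act mostly without beta-catenin, through cell polarity and movement. Nuclear beta-catenin and expression of Wnt target genes have long been described in human synovial sarcoma.

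Synovial sarcoma is a soft tissue cancer driven by a fusion of SS18 to an SSX gene, and the fusion protein sits in BAF chromatin remodelling complexes. The mice expressed the human fusion SS18::SSX2 (hSS2) or SS18::SSX1 (hSS1) from the Rosa26 locus after TATCre protein was injected into a limb at 8 days of age. The hSS2 tumours were 13 control tumours with the fusion and no knockout named in the labels, 8 with a conditional knockout of Pbrm1 (a subunit of PBAF complexes), 8 with that of Arid1a and 8 with that of Arid1b (both subunits of canonical BAF complexes). The hSS1 tumours were 5 controls and 4 with the Pbrm1 knockout, and both alleles were floxed per the study's methods (these groups are named Pbrm1-fl, Arid1a-fl or Arid1b-fl). Every group carried the fusion and received Cre, which as an injected protein is not limited to 1 cell type, and each library was made from bulk frozen tumour tissue.

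Library totals ran from 10.1 to 21.3 M counts. Pbrm1 fell by 1.27 on the log2 scale in hSS2 Pbrm1-fl tumours (SE 0.088, adjusted p = 4.2e-12) and Arid1a by 0.95 in Arid1a-fl tumours (SE 0.13, adjusted p = 7.0e-05). The fold of Arid1b in Arid1b-fl tumours (log2 -0.80, SE 0.19) had an adjusted p of 0.145, and that of Pbrm1 in hSS1 Pbrm1-fl tumours (log2 -0.75, SE 0.24) one of 0.193. A control library, hSS2 control replicate 9, held 238 CPM of Arid1a (CPM is the count a gene would have per 1 M counts of the library, after scaling), within the range of the Arid1a-fl tumours (229 to 276). The mouse numbers in the sample titles also separated the groups. All hSS2 Pbrm1-fl tumours came from numbers of 2000 and over, all Arid1a-fl tumours from numbers under 1000, and the Arid1b-fl and hSS1 Pbrm1-fl tumours from the range between, while the hSS2 controls spread over the 3 ranges with 4, 5 and 4 tumours. Called members are therefore given also against the controls of the same range. The skeletal muscle markers (10 genes) summed to 12.6 to 43148 CPM in hSS2 controls, 6.99 to 13776 in Pbrm1-fl, 5.33 to 10121 in Arid1a-fl and 13 to 40651 in Arid1b-fl tumours. The synovial sarcoma markers (6 genes) were present in every group, with medians of 451 to 607.

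Upstream windows of 250 bases before the start of each transcript were taken from RefSeq (GRCm38.p6) to show where the letters bound by TCF and LEF factors occur in members. RefSeq windows were at hand for 36 of the 53 members. The core motif CTTTGA, or TCAAAG where it lies on the other strand, was present for 5 of these 36 (13.9%), and for 15.8% of all 27025 genes with a window. The 5 were Lef1, Wnt5b, Fzd1, Wnt11 and Dkk1, and Axin2 was not among them. The stretches are shown because Lef1 is a target gene and Wnt5b and Fzd1 passed a test below, with Wnt11 as the occurrence nearest to a start. They read 5′ to 3′ on the strand of the gene, with the motif in capitals.
Lef1, chr3:131156102-131156131, plus strand: taaaatacatggTCAAAGgaaaataggtat
Lef1, chr3:131156162-131156191, plus strand: cattgtctgttcTCAAAGtcaggtcttgca
Wnt5b, chr6:119449440-119449469, minus strand: gagtaagtctctCTTTGAtctgctccctgt
Fzd1, chr5:4758441-4758466, minus strand: cgcagcacTCAAAGtagcagtctgtg
Wnt11, chr7:98835050-98835079, plus strand: gacgtgggcggaTCAAAGcgacggtccgcg
The Lef1 and Wnt5b stretches lie inside the gene and outside any exon of GENCODE M21, and the Fzd1 and Wnt11 stretches lie upstream of the gene. The motif began 180 and 120 bases before the start in Lef1, 71 in Wnt5b, 242 in Fzd1 and 50 in Wnt11. A match is a description of these letters, and the window of a member without one says nothing of sites elsewhere.

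Levels between genes are compared as CPM per kb of annotated exon. In hSS2 control tumours Fzd1, a Frizzled that serves canonical signalling, was the most abundant member at 228 CPM per kb, followed by Ctnnb1, which encodes beta-catenin, at 125. Among the ligands Wnt5a led with 71.5 ± 32.3, 46% of the summed ligand level, ahead of Wnt16 with 23.7 ± 15.7, a ligand known from bone. Fzd1 made up 66.1% of the summed receptor level and Fzd10 came next at 30.5 ± 16.7. Sfrp2, a secreted protein with a Frizzled-like domain, made up 71.3% of the summed inhibitor level, ahead of Wif1, which binds Wnt ligands directly, at 9.65 ± 10.2. The R-spondins, which stabilise receptors by removing the ligases RNF43 and ZNRF3, were low, with Rspo3 at 8.40 ± 4.61 and Rspo1 at 4.09 ± 3.52. Of the target genes Axin2, a negative feedback scaffold of the destruction complex, stood highest at 34.5 ± 15.3 (SD, n = 13 for all these values). These leading genes led in the other groups too, with few exceptions. Wnt5a, Fzd1, Sfrp2, Ctnnb1 and Axin2 each had the highest mean of their role in all 6 groups, and Rspo3 did so in 5, with Rspo1 ahead in hSS2 Pbrm1-fl tumours.

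At the other end, Wnt8a had 0 counts in 44 of the 46 libraries and 1 count in each of the others. Wnt2 was at 0 in 5 of 13 hSS2 control libraries. The filter on low counts removed these 2 genes from the hSS2 comparisons and 6 members, Wnt1, Wnt2, Wnt3a, Wnt7a, Wnt8a and Dkk1, from the hSS1 comparison. The members that were tested therefore number 51 of 53 in hSS2 and 47 of 53 in hSS1.

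**Figure D1:**
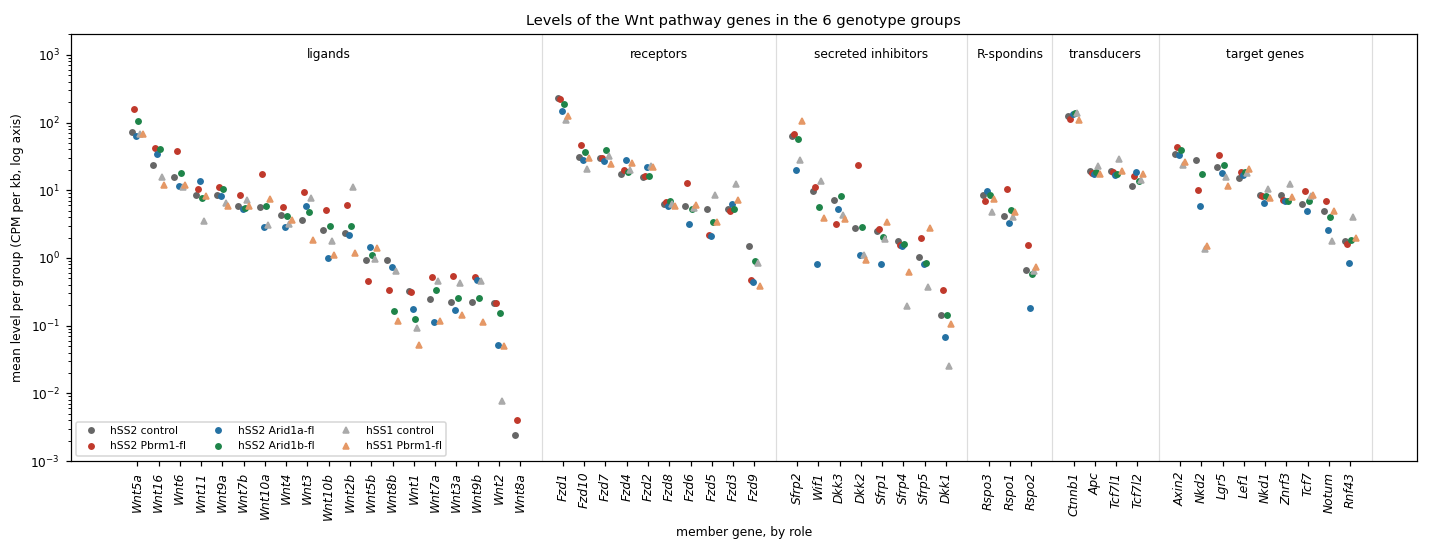
Mean level of each of the 53 members in the 6 groups, in CPM per kb of exon on a log axis, ordered within each role by the hSS2 control mean (circles hSS2, triangles hSS1). Fzd1, Ctnnb1 and Wnt5a sit highest, Axin2 leads the target genes, and means of 0 (Wnt8a in 4 groups) are not drawn.

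The SD of log2 CPM within groups, over the 37 hSS2 tumours, had a median of 0.46 over the 20083 genes tested, and 43 of the 51 tested members lay above that median. It was 2.28 for Nkd2, more than in 98.7% of tested genes, 1.70 for Dkk2, 1.40 for Wif1 and 1.2 for Wnt10a. The transducers were at the low end, with 0.28 for Ctnnb1 and 0.14 for Apc, the latter above 1.80% of tested genes. The members were not compared with genes of like level, so the part of low counts in these spreads was not tested.

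The hSS2 Pbrm1-fl tumours held more RNA of several ligands, of an inhibitor and of an R-spondin than the hSS2 controls. By edgeR's quasi-likelihood test with Benjamini-Hochberg adjustment over all genes, 9 of the 51 members tested passed an adjusted p of 0.05 (17.6%), where 7.35% of all 20083 genes did. Of the 9, 6 were higher (Wnt5a, Wnt6, Wnt10a, Fzd6, Dkk2 and Rspo1; 3.4% of all genes were called higher) and 3 lower (Wnt5b, Fzd5 and Fzd9; 3.95% of all genes were called lower). None of the 9 target genes passed. Counts by role were 4 of 17 ligands, 3 of 10 receptors, 1 of 8 secreted inhibitors, 1 of 3 R-spondins, 0 of 4 transducers and 0 of 9 target genes. No test was made of whether these shares differ from the share over all genes. Fewer cells of a type and less RNA per cell cannot be told apart in such bulk samples.

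Among the ligands, Wnt6 ranged from 11.8 through a median of 31 to 83.3 CPM in the 13 controls and from 50.1 through 80.1 to 130.4 in the 8 Pbrm1-fl tumours. All 8 lay above the control median and 4 above every control. This made a log2 fold change of 1.26 with an SE of 0.29 (adjusted p = 0.0060). Wnt5a ran from 287 through 547 to 1149 CPM in controls and from 535 through 1219 to 2257 in Pbrm1-fl tumours. Of the 8, 7 lay above the control median, 5 of them above every control, and Pbrm1-fl replicate 8 was the highest. The difference on the log2 scale was 1.15 with an SE of 0.31 (adjusted p = 0.020). Wnt10a, a canonical ligand of skin and tooth development, ran from 1.23 through 8.59 to 36.6 CPM in controls and from 21.1 through 38.4 to 59.5 in Pbrm1-fl tumours. All 8 exceeded the control median and 5 exceeded every control (log2 1.6, SE 0.48, adjusted p = 0.034). Wnt5b, whose motif stretch inside the gene is shown above, went the other way, from a control range of 1.19 to 3.72 CPM (median 2.55) to 0.777 to 1.77 (median 1.18). All 8 tumours lay below the control median and 4 below every control, with log2 -1.03 and an SE of 0.25 (adjusted p = 0.011). The ligands as a role had 14 of 17 fold changes above 0 and a median log2 fold change of 1.02, beside -0.0042 over all genes tested.

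Wnt6 and Wnt10a lie 19.6 kb apart from start to start on the same strand of chromosome 1 (Wnt6 at chr1:74771892-74785322 and Wnt10a at chr1:74791516-74804179, GRCm38). Their levels went together within groups. Taking each of the 37 hSS2 tumours as a deviation from the mean of its group and mouse number range, Pearson's r was 0.70 (permutation p = 4.0e-05) and Spearman's rho 0.69 (permutation p = 3.0e-05). Without the 2 tumours farthest from the median of Wnt6, r was 0.67. Of the 3 other neighbouring pairs of Wnt genes, Wnt3 and Wnt9b (24.3 kb apart on opposite strands of chromosome 11) had r = 0.95 and rho = 0.95, each with a permutation p of 1e-05, the smallest that 100000 permutations can give. Without the 2 farthest tumours r stayed at 0.95. Wnt9a and Wnt3a gave r = 0.48 (rho 0.51) and Wnt10b and Wnt1 r = 0.40 (rho 0.39). All 4 pairs had a Benjamini-Hochberg adjusted permutation p of 0.021 or less over the 4 for both measures. These 4 relations were chosen after the data were seen, and the tumours share with them any difference in tissue content. Pairs of ligands that are not neighbours were not compared, so whether neighbours go together more closely was not tested.

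Of the receptors, Fzd6, a Frizzled best known from hair and tissue polarity, ran from 16.4 through 27.1 to 43.6 CPM in controls. In Pbrm1-fl tumours it ran from 10.7 through 49.1 to 132, with 7 of 8 above the control median and replicate 8 below every control. On the log2 scale it differed by 1.14 with an SE of 0.31 (adjusted p = 0.019). Fzd9 ran from 1.16 through 2.47 to 10.9 CPM in controls and from 0.201 through 0.937 to 2.34 in Pbrm1-fl tumours (log2 -1.69, SE 0.46, adjusted p = 0.020), each of the 8 under the median control. Fzd5, a receptor with roles in eye and gut, ran from 12.4 through 21.7 to 123 CPM in controls and stayed within 10.6 to 20.5 (median 13.6) in Pbrm1-fl tumours (log2 -1.27, SE 0.39, adjusted p = 0.038). None of the 8 reached the median control, while 2 fell under every control. Fzd1, the most abundant receptor, had medians of 959.8 and 874 CPM, and Fzd10 of 92.6 and 133, and neither passed the test. The receptors as a role had a median log2 fold change of 0.042.

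The largest fold change of any member tested in Pbrm1-fl tumours was that of Dkk2, a secreted protein that blocks the co-receptors LRP5 and LRP6. It ran from 0.594 through 4.51 to 42 CPM in controls and from 2.41 through 58.3 to 209 in Pbrm1-fl tumours, with log2 3.09 and an SE of 0.68 (adjusted p = 0.0040). Of the 8, 5 exceeded every control, and the lowest, replicate 8, lay below the control median. None of the other 7 inhibitors passed. Sfrp2 had medians of 110.3 and 163 CPM and Wif1 of 13.5 and 21.6.

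Rspo1 ran from 2.31 through 4.76 to 23.0 CPM in controls and from 13.5 through 20.9 to 25 in Pbrm1-fl tumours, all 8 of which lay above the control median and 2 above every control (log2 1.33, SE 0.38, adjusted p = 0.028). Rspo3 did not pass, with medians of 27.8 and 22.1 CPM. Among the transducers, Ctnnb1 had medians of 609 and 547 CPM and Apc, the scaffold that holds beta-catenin for destruction, 310.3 and 283, with no call for either. Tcf7l2, a TCF factor, ran from 52.6 to 126 CPM in controls and from 108 to 214 in Pbrm1-fl tumours (log2 0.50, SE 0.17, adjusted p = 0.058).

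Against the 4 controls of the same mouse number range, in a fit that kept all 37 hSS2 tumours, the folds kept their sign and fewer passed. Wnt5b (log2 -1.43, adjusted p = 0.0090), Fzd5 (-2.19, 0.0015) and Fzd9 (-2.03, 0.047) passed there as lower. Wnt16, which had not passed against all controls, passed there as higher. It read 9.74, 5.96, 17.9 and 104 CPM in those 4 controls and from 53.1 to 301 in the 8 Pbrm1-fl tumours. The 6 members called higher against all controls had log2 folds of 0.91 (Wnt6), 1.16 (Wnt5a), 1.14 (Wnt10a), 1.11 (Fzd6), 2.66 (Dkk2) and 1.02 (Rspo1) there, with adjusted p from 0.213 to 0.504. Over all genes that fit called 104 higher and 373 lower, where all controls together gave 683 and 793. Range and genotype cannot be told apart for the 9 controls of the other ranges. With 1 library left out at a time, Dkk2, Wnt6, Wnt5b and Fzd9 passed in all 21 fits. Wnt5a lost its call without Pbrm1-fl replicate 8 (adjusted p = 0.064), Rspo1 without Pbrm1-fl replicate 7 (0.055) and Fzd6 without Pbrm1-fl replicate 2 (0.080) or 3 (0.083). Wnt10a lost it without control replicate 3, 6, 7, 9 or 11 or Pbrm1-fl replicate 2, 3 or 4 (up to 0.068), and Fzd5 without control replicate 2 or 3 or Pbrm1-fl replicate 2, 3, 5, 7 or 8 (up to 0.074). None of the 10 muscle, 7 fibroblast and 7 macrophage markers was called in this comparison, with median log2 fold changes of -0.85, -0.39 and 0.39, and the muscle markers summed to a median of 181 CPM in Pbrm1-fl and 3198 in control tumours. Of the 6 synovial sarcoma markers 1 was called, Twist1 as higher, while their median log2 fold change was -0.56. All 9 members passed with the muscle or the fibroblast score as a covariate.

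**Figure D2:**
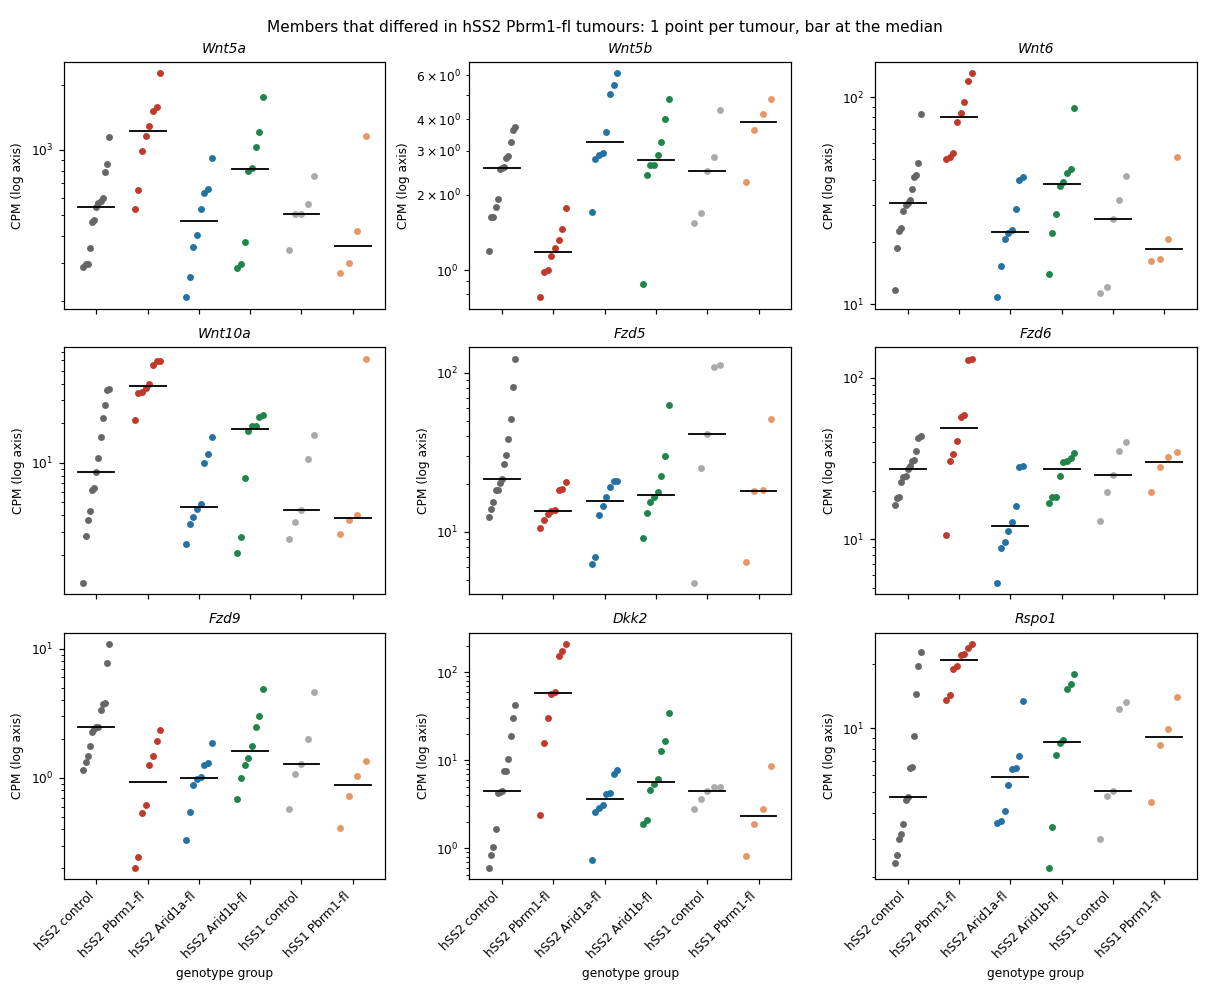
Level of the 9 members called in hSS2 Pbrm1-fl tumours, in CPM on a log axis, with 1 point per tumour in each of the 6 groups and a bar at the median. Wnt6, Wnt10a and Rspo1 sit above the control median in all 8 hSS2 Pbrm1-fl tumours, Wnt5b, Fzd5 and Fzd9 below it, and Dkk2 spans 2.41 to 209 CPM.

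The hSS2 Arid1a-fl tumours differed from the same controls in 5 members, of which Fzd9 was lower in Pbrm1-fl tumours too. In this comparison 5 of 51 members passed (9.80%), where 3.17% of all genes did (637, falling to 56 without Arid1a-fl replicate 8 and rising to 1416 without replicate 6). Wif1, Sfrp2, Fzd1 and Fzd9 were lower (1.76% of all genes were called lower) and Tcf7l2 was higher (1.41% of all genes were called higher). The 13 controls were shared with the Pbrm1-fl comparison.

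Wif1 ran from 3.78 through 13.5 to 92.8 CPM in controls and from 0.400 through 1.82 to 3.93 in Arid1a-fl tumours. Of the 8, 7 lay below every control and the difference was -3.54 on the log2 scale with an SE of 0.68 (adjusted p = 0.0070). Sfrp2 ran from 44.9 through 110.3 to 234 CPM in controls and from 7.54 through 46.5 to 78.1 in Arid1a-fl tumours, all 8 below the control median and 4 below every control (log2 -1.64, SE 0.44, adjusted p = 0.0398). All 8 secreted inhibitors had a log2 fold change below 0, with a median of -1.19 beside -0.043 over all genes, and the other 6, Dkk1, Dkk2, Dkk3, Sfrp1, Sfrp4 and Sfrp5, did not pass. The summed inhibitor level was 30.6 ± 16 CPM per kb in Arid1a-fl tumours (n = 8) and 87.7 ± 37.9 in controls (n = 13).

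Fzd1 ran from 679 through 959.8 to 1316 CPM in controls and from 302 through 666 to 851 in Arid1a-fl tumours, with 4 of 8 below every control (log2 -0.64, SE 0.17, adjusted p = 0.041). Fzd9 ran from 0.333 through 1.00 to 1.86 CPM in Arid1a-fl tumours, against the control median of 2.47 (log2 -1.75, SE 0.46, adjusted p = 0.037). Tcf7l2 ran from 91.3 through 149 to 315 CPM, against 52.6 through 103 to 126 in controls, and 7 of 8 Arid1a-fl tumours exceeded every control (log2 0.69, SE 0.16, adjusted p = 0.026). No ligand passed, and 12 of the 17 tested had a log2 fold change below 0. Wnt5a had a median of 468 CPM beside 547 in controls, and Wnt16 of 162 beside 104.

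Against the 5 controls of numbers under 1000, with all 37 tumours in the fit, Wif1 (log2 -3.58, adjusted p = 0.0067), Tcf7l2 (0.90, 0.011) and Fzd9 (-1.75, 0.045) passed, and Sfrp2 (-1.63, 0.053) and Fzd1 (-0.54, 0.114) did not. Wif1 passed with any 1 of the 21 libraries left out. Tcf7l2 lost its call without Arid1a-fl replicate 1 (adjusted p = 0.056) or 8 (0.110). Fzd9 lost it without control replicate 11 or Arid1a-fl replicate 1, 2, 5, 7 or 8 (up to 0.104), Sfrp2 without control replicate 4, 5, 7 or 13 or Arid1a-fl replicate 1, 2, 5, 7 or 8 (up to 0.107), and Fzd1 without control replicate 2, 7, 9, 12 or 13 or Arid1a-fl replicate 1, 2, 5, 7 or 8 (up to 0.115). Markers of other cell types moved beside these genes, though none passed. The 7 fibroblast markers had a median log2 fold change of -1.22, the 4 tested adipocyte markers of -2.99 and the 10 muscle markers of -1.36. Summed fibroblast markers ran from 2104 through a median of 6314 to 8928 CPM in Arid1a-fl tumours. In controls they ran from 1409 through 3482 to 14879, so this median was higher in Arid1a-fl tumours. Adipocyte markers were near the floor, with median sums of 1.23 CPM in Arid1a-fl tumours and 3.61 in controls. Muscle markers had median sums of 1305 and 3198 CPM. With the fibroblast score as a covariate all 5 members passed, and with the muscle score Wif1, Tcf7l2 and Fzd1 did.

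**Figure D3:**
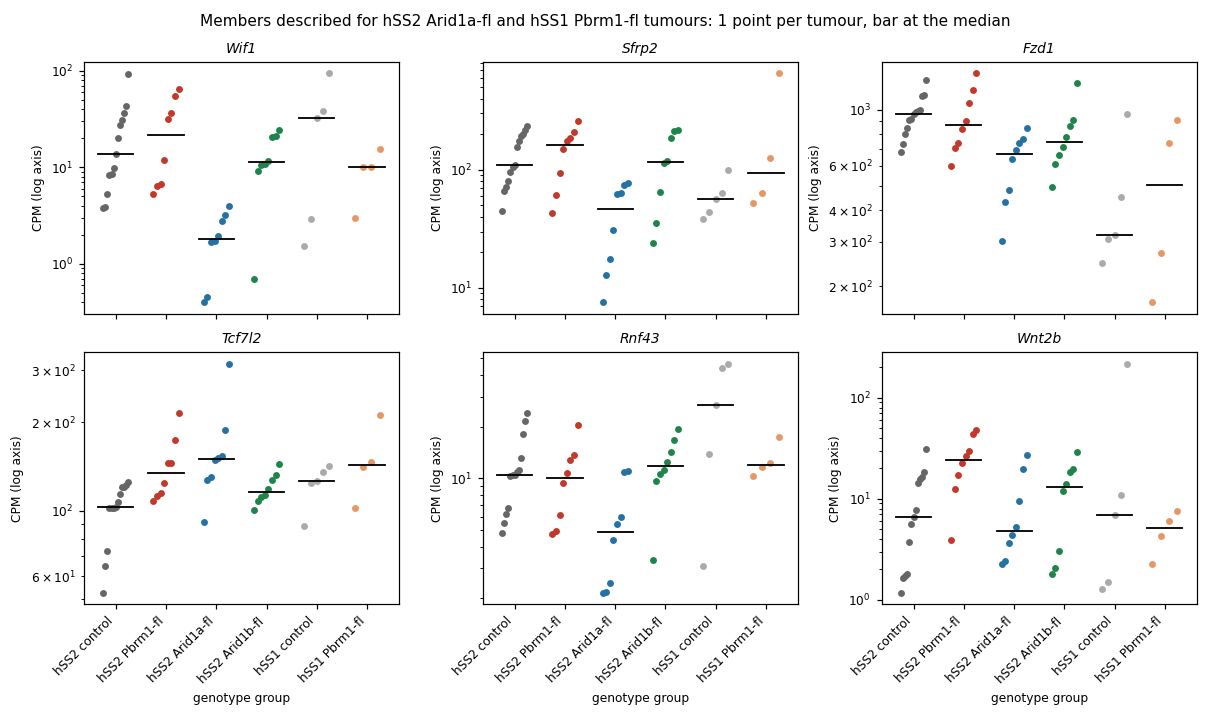
Levels of Wif1, Sfrp2, Fzd1, Tcf7l2, Rnf43 and Wnt2b in CPM on a log axis, with 1 point per tumour in each of the 6 groups and a bar at the median. In hSS2 Arid1a-fl, 7 of 8 tumours lie below every control in Wif1 and above every control in Tcf7l2, and 1 hSS1 control stands at 216 CPM of Wnt2b.

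In the hSS2 Arid1b-fl tumours no member passed by edgeR's test, where 11 genes in all did (0.0548% of 20083), and none passed by DESeq2's Wald test. At an unadjusted p under 0.05 there were 2 of 51 members (3.92%), beside 6.22% of all genes. These were Wnt1 and Wnt8b, both lower, with highest Arid1b-fl tumours at 0.625 and 1.64 CPM. The levels of the leading members overlapped those of controls. Wnt5a ran from 283 through 812 to 1751 CPM and Axin2 from 93.5 through 224 to 341. The knockout itself did not separate this group from controls, since Arid1b ranged from 111 to 347 CPM in it and from 222 to 686 in controls.

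In the hSS1 background no member passed for Pbrm1-fl against control by edgeR, where 1 of 17786 genes did (0.00562%). DESeq2's Wald test called 2 members, Wnt3 lower and Sfrp5 higher, and 3.58% of all 34355 genes. Sfrp5 read 16.1, 0.543, 2.35 and 2.16 CPM in Pbrm1-fl and 0.177, 0.966, 0.686, 0.858 and 0.864 in controls, so its highest value stood in 1 tumour. At an unadjusted p under 0.05 there were 8 of 47 members (17%), beside 17.2% of all genes, 4 in each direction. Only Wnt9b had no overlap between the 4 Pbrm1-fl and 5 control tumours (6.82% of all genes had none). It read 0.570, 0.634, 0 and 0.809 CPM against 1.33, 1.53, 0.943, 5.07 and 1.34 (log2 -1.99, SE 0.79, adjusted p = 0.251). Its neighbour Wnt3, a canonical ligand of the embryo, read 3.61, 4.17, 8.16 and 6.65 CPM in Pbrm1-fl and 16.1, 15, 5.40, 59.5 and 22.7 in controls (log2 -2.07, SE 0.64, adjusted p = 0.182). None of the 6 members raised in hSS2 Pbrm1-fl tumours passed here. The fold of Pbrm1 itself was log2 -0.75 in hSS1 and -1.27 in hSS2. Wnt6 was 20.6, 16.6, 51.3 and 16.2 CPM against 11.3, 32, 12.2, 25.9 and 41.5, and Dkk2 was 2.75, 0.815, 8.57 and 1.89 CPM against 3.63, 4.99, 4.97, 2.79 and 4.41. Wnt10a was 3.99, 2.90, 62.1 and 3.69 CPM against 3.55, 10.6, 2.66, 4.36 and 16.3, so its highest value stood in 1 tumour. Mean levels per kb were 68.5 against 68.3 for Wnt5a, 5.96 against 5.53 for Fzd6 and 4.74 against 3.97 for Rspo1. Marker genes moved in this comparison as well, none of them called. Summed fibroblast markers ran from 450 to 2171 CPM in controls and from 2067 to 5927 in Pbrm1-fl tumours. Their median log2 fold change was 1.48 over 5 tested, and that of the 4 tested muscle markers was -3.06. The 10 muscle markers summed to similar medians, 12.8 CPM in controls and 13.2 in Pbrm1-fl tumours. The highest sums were those of control replicates 2 and 3, at 594 and 530, beside 81.9 in the highest Pbrm1-fl tumour. With the fibroblast score as a covariate 0 genes passed by edgeR, and with the muscle score 1 gene did. No target gene passed with either score. The source of these marker differences was not tested.

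The 2 backgrounds were compared by an interaction, as the log2 fold change in hSS1 less the one in hSS2. It contrasted the 30 Pbrm1-fl and control tumours in a fit that held all 46. Of 52 members, 2 passed (3.85%), where 2.86% of 21725 genes did (622, between 235 without hSS1 control replicate 3 and 876 without hSS2 Pbrm1-fl replicate 1). Wnt5b read 4.84, 3.62, 2.24 and 4.22 CPM in hSS1 Pbrm1-fl and 2.84, 1.69, 2.49, 4.36 and 1.54 in hSS1 controls, so the groups overlapped and the hSS1 mean was higher with the knockout, against the fall in hSS2 (interaction log2 1.55, SE 0.44, adjusted p = 0.044). With 1 of the 30 libraries left out, this call was lost in 17 fits, with an adjusted p of up to 0.119 without hSS1 Pbrm1-fl replicate 1. Wnt2b, a canonical ligand, read 2.28, 5.98, 4.28 and 7.64 CPM in hSS1 Pbrm1-fl and 216, 10.9, 1.29, 1.5 and 6.91 in hSS1 controls (interaction log2 -4.63, SE 1.35, adjusted p = 0.049). The first hSS1 control alone carried that value. Without it the interaction was -1.42 (adjusted p = 0.533), and the call was lost in 23 of the 30 fits with 1 library left out. The interaction of Wnt6 (-1.18, SE 0.56, adjusted p = 0.241) and of Dkk2 (-3.33, SE 1.24, adjusted p = 0.127) did not pass, so a difference between backgrounds was not shown for them. The 2 backgrounds were counted in separate tables, and their levels stand side by side here with no test between them.

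The target genes were read next to the ligands and secreted inhibitors, which act upstream of them. None of the 9 target genes passed in any of the 4 comparisons or the interaction by edgeR on group, with all libraries, undivided controls and no covariate. Other edgeR fits that called Rnf43 in Arid1a-fl or Lgr5 in hSS2 Pbrm1-fl tumours are given below. At an unadjusted p under 0.05 there was 1 in hSS2 Pbrm1-fl (Lgr5, higher), 3 in Arid1a-fl (Nkd2, Notum and Rnf43, lower) and 0 in Arid1b-fl and in hSS1 Pbrm1-fl, where the shares of all genes were 22.4%, 23.0%, 6.22% and 17.2%. The 1 of 9 (11.1%) in Pbrm1-fl lay below that background and the 3 of 9 (33.3%) in Arid1a-fl above it, with no test of either. DESeq2's Wald test called Rnf43 in Arid1a-fl and no other target gene. In hSS2 Pbrm1-fl tumours the 9 target genes had a median log2 fold change of 0.31 and the 25 tested ligands and inhibitors one of 0.82. In Arid1a-fl tumours the medians were -0.33 and -0.37, in Arid1b-fl 0.044 and 0.022, and in hSS1 Pbrm1-fl 0.078 and -0.15 (21 ligands and inhibitors tested), beside medians over all genes of -0.0042, -0.043, 0.0045 and 0.011. These medians are descriptions of lists chosen with results known, and no test was made between them. Sp5, another gene that beta-catenin induces, was not among these 9. It is given below and passed as higher in hSS2 Pbrm1-fl tumours against all controls.

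**Figure D4:**
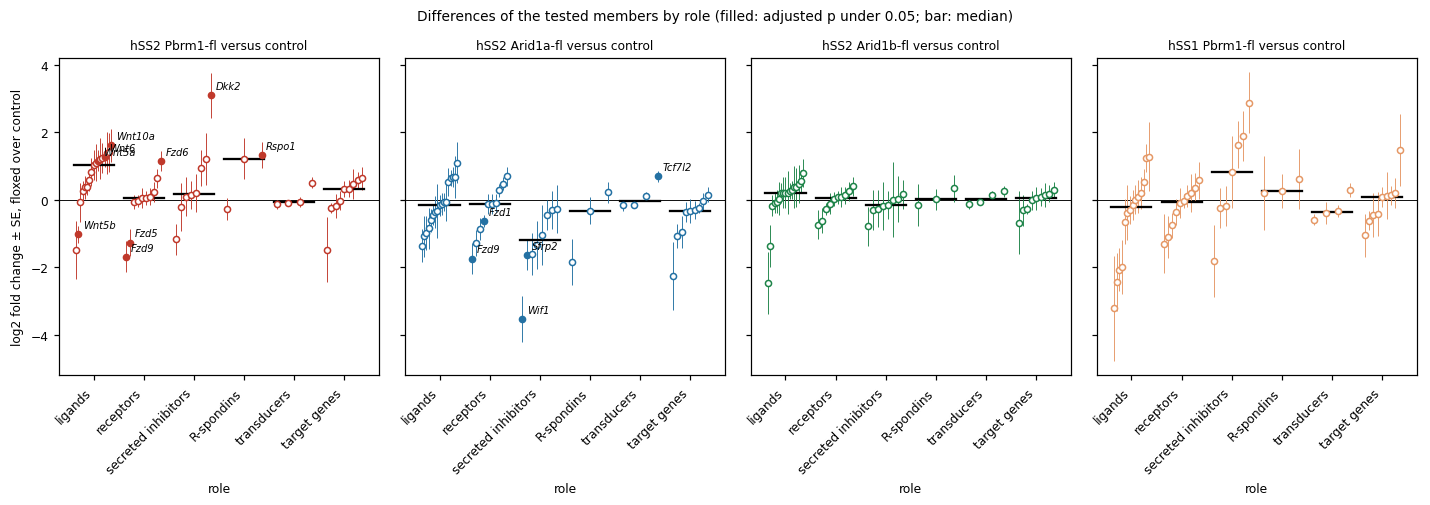
Log2 fold change (floxed over control) with its SE for every tested member, by role, in the 4 comparisons. Filled points passed an adjusted p of 0.05 and the bar is the role's median. In hSS2 Pbrm1-fl the ligand bar lies at 1.02 and the target gene bar at 0.31, and no target gene point is filled in any panel.

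Axin2 ran from 62.1 through 198 to 364 CPM in hSS2 controls, 166 through 211 to 396 in Pbrm1-fl, 111 through 187 to 255 in Arid1a-fl and 93.5 through 224 to 341 in Arid1b-fl tumours. The 4 ranges overlapped and the adjusted p were 0.471, 0.926 and 0.956. In hSS1 it read 123, 178, 72.4, 113 and 174 CPM in controls and 109, 142, 121 and 204 in Pbrm1-fl tumours. Lef1, a TCF/LEF factor that beta-catenin both binds and induces, had medians of 116, 155, 148 and 173 CPM in the 4 hSS2 groups in the same order, and 141 and 184 in hSS1. Tcf7, its relative, had medians of 14.3, 21.6, 12.9 and 19.4 CPM in hSS2, and 23.9 and 22.4 in hSS1. The lowest of the 8 hSS2 Pbrm1-fl tumours stood at 125 CPM for Lef1 and 16.2 for Tcf7, above both control medians, at log2 fold changes of 0.31 (SE 0.23) and 0.63 (SE 0.34) that did not pass.

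Lgr5, the R-spondin receptor that marks stem cells in the gut, ran from 85.6 through 221 to 345 CPM in hSS2 controls and from 222 through 339 to 491 in Pbrm1-fl tumours. All 8 lay above the control median and 4 above every control (log2 0.57, SE 0.26, adjusted p = 0.184). It passed with the muscle score (adjusted p = 0.030) or the fibroblast score (0.012) as a covariate. The other groups had medians of 179 CPM in Arid1a-fl, 162 in Arid1b-fl, 153 in hSS1 control and 112 in hSS1 Pbrm1-fl tumours. Rnf43, a ligase that removes Frizzled receptors, ran from 4.84 through 10.5 to 24.0 CPM in hSS2 controls and from 2.15 through 4.90 to 11.1 in Arid1a-fl tumours, 4 of which lay below every control (log2 -1.08, SE 0.36, adjusted p = 0.073). It passed against the 5 controls of the same mouse number range with all 37 tumours in the fit (-1.38, adjusted p = 0.043) and with the fibroblast score as a covariate (adjusted p = 0.046). It did not pass with the 13 tumours of that range alone (adjusted p = 0.157) or with the muscle score (adjusted p = 0.119). Its relative Znrf3 had medians of 66.3 CPM in hSS2 controls and of 55.9 with Pbrm1-fl, 53.5 with Arid1a-fl and 50.7 with Arid1b-fl, with no call.

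Notum, a secreted enzyme that strips the lipid from Wnt ligands, ran from 2.31 through 12.6 to 32.5 CPM in hSS2 controls and had medians of 15.1 with Pbrm1-fl, 5.81 with Arid1a-fl and 11.6 with Arid1b-fl. Nkd1, which inhibits Dishevelled, had medians of 30.4, 36.1, 28.1 and 29 CPM in the 4 hSS2 groups. Its relative Nkd2 spread from 2.61 to 681 CPM among the hSS2 controls, so that a log2 fold change of -2.26 in Arid1a-fl tumours carried an SE of 1.00 (adjusted p = 0.174). In hSS1 it stayed within 2.35 to 17.6 CPM over the 9 tumours.

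**Figure D5:**
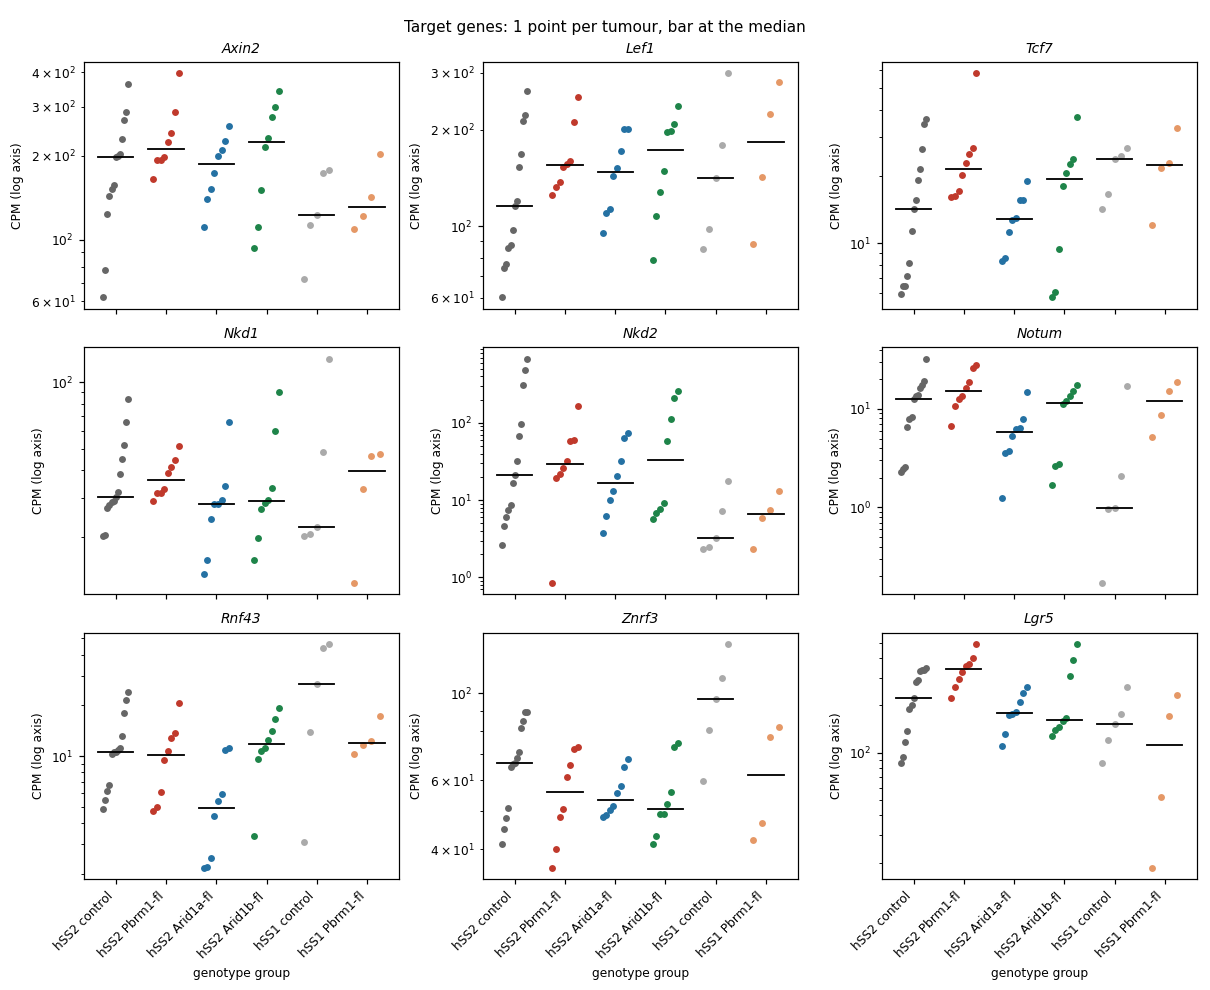
Level of the 9 target genes in CPM on a log axis, with 1 point per tumour in each of the 6 groups and a bar at the median. The groups overlap in every panel, Nkd2 spans 2.61 to 681 CPM among hSS2 controls, and Lgr5 is above the control median in all 8 hSS2 Pbrm1-fl tumours.

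Axin2 was compared with the other target genes from tumour to tumour. Over the 13 hSS2 controls, Axin2 was related to each of the other 8 with Benjamini-Hochberg adjustment over the 8, and 3 passed by Pearson's r with 100000 permutations. These were Lgr5 (r = 0.76, rho = 0.74, permutation p = 0.0023 and 0.0057, adjusted permutation p = 0.018 and 0.036), Nkd2 (r = 0.73, rho = 0.68, permutation p = 0.0047 and 0.013, adjusted permutation p = 0.019 and 0.036) and Tcf7 (r = 0.65, rho = 0.68, permutation p = 0.015 and 0.012, adjusted permutation p = 0.041 and 0.036). Without the 2 controls farthest from the Axin2 median, r was 0.44, 0.67 and 0.53, so that of Lgr5 rested in part on those 2. Lef1 passed by rho (0.65, permutation p = 0.019, adjusted permutation p = 0.037) and missed the threshold by r (0.60, permutation p = 0.030, adjusted permutation p = 0.060). Rnf43 (r = 0.48), Nkd1 (0.17) and Notum (0.0091) did not pass, and Znrf3 ran the other way (-0.56, permutation p = 0.047, adjusted permutation p = 0.075). Without the same 2 controls r was 0.70 for Lef1, 0.25 for Rnf43, -0.063 for Nkd1, 0.65 for Notum and -0.55 for Znrf3. The low r of Notum thus rested on those 2. Of the 20082 other genes tested, 4.68% had an r with Axin2 at least as high as that of Tcf7. Over all 37 hSS2 tumours, as deviations from the mean of their group and mouse number range and permuted within these cells, 7 of the 8 passed. The r was 0.67 for Tcf7, 0.64 for Nkd2, 0.62 for both Lef1 and Notum, 0.60 for Lgr5, 0.44 for Nkd1 and 0.42 for Rnf43 (rho from 0.43 to 0.68), with an adjusted permutation p of 0.017 or less for r and for rho. Of all other genes, 5.93% had an r at least as high as that of Rnf43. Without the 2 farthest tumours these r were 0.75, 0.56, 0.54, 0.67, 0.47, 0.48 and 0.41. Znrf3 was the exception at r = -0.20 (rho -0.11, adjusted permutation p = 0.337 and 0.551). The same tumours differ in muscle and stromal content, whose part in these relations was not tested.

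The other pathway genes, 48 co-receptors, destruction complex members, polarity genes and further targets, were listed with earlier results known. In hSS2 Pbrm1-fl tumours 7 of 47 tested passed (14.9%, beside 7.35% of all genes), 5 higher and 2 lower. The 6 with the smallest adjusted p were Prickle2 and Daam1, of the polarity branch and both lower, and Adgra2, Pygo2, Sp5 and Kremen2, all higher. Prickle2 ran from 55.8 through 73.5 to 128 CPM in controls and from 11.4 through 26.1 to 56.4 in Pbrm1-fl tumours (log2 -1.59, SE 0.25, adjusted p = 1.9e-04), and passed also against the controls of the same range (-1.81, adjusted p = 0.0011). Daam1 had medians of 81.9 and 50.6 CPM (log2 -0.69, SE 0.16, adjusted p = 0.0077). Adgra2, a co-receptor for Wnt7 ligands known as GPR124, had medians of 36.1 and 77.7 CPM (log2 1.02, SE 0.23, adjusted p = 0.0059) and passed against the same range (1.34, adjusted p = 0.028). Sp5, a transcription factor gene that beta-catenin induces directly, ran from 4.13 through 9.73 to 20.8 CPM in controls and from 11.9 through 29.1 to 55.7 in Pbrm1-fl tumours (log2 1.53, SE 0.44, adjusted p = 0.026). It differed between backgrounds, since it was higher in hSS1 controls (25.7 to 49.8 CPM) than in hSS1 Pbrm1-fl tumours (6.17 to 23.1), with an interaction of -2.92 (SE 0.80, adjusted p = 0.036; 2 of 47 other pathway genes passed the interaction, 4.26% beside 2.86% of all genes). Kremen2, a DKK receptor, rose by 1.45 (SE 0.42, adjusted p = 0.029) and Pygo2, a beta-catenin cofactor, by 0.28 (SE 0.078, adjusted p = 0.024). Celsr1, a polarity cadherin, also differed between backgrounds (interaction log2 -2.65, SE 0.76, adjusted p = 0.046). Both interactions were refitted with the 4 hSS2 controls of the Pbrm1-fl range and every hSS1 tumour, whatever its mouse number. Neither interaction passed there (Sp5 -2.76, adjusted p = 0.122, and Celsr1 -2.04, adjusted p = 0.135). Daam1, Sp5, Kremen2 and Pygo2 did not pass against the 4 controls of the same range, with adjusted p from 0.311 to 0.601. In Arid1a-fl tumours 2 of 47 passed (4.26%, beside 3.17% of all genes). Kremen1 was lower (log2 -0.64, SE 0.16, adjusted p = 0.030) and Myc higher (log2 1.54, SE 0.41, adjusted p = 0.038), the latter with a median of 12.2 CPM beside 10.8 in controls and a highest tumour of 148 beside 21. Against the 5 controls of the same range, with all 37 tumours in the fit, Kremen1 passed (-0.63, adjusted p = 0.047) and Myc did not (1.44, adjusted p = 0.108). In Arid1b-fl and hSS1 Pbrm1-fl tumours 0 passed, with 1 of 47 and 10 of 46 at an unadjusted p under 0.05 (2.13% and 21.7%, beside 6.22% and 17.2% of all genes).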

How the data were processed

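Total RNA of each tumour was depleted of ribosomal RNA and sequenced from directional libraries. Per the labels, the authors aligned reads with STAR 2.7.11 to mm10 and counted them per gene with featureCounts 1.6.3; the deposited values are raw counts, 1 table for the 37 hSS2 and 1 for the 9 hSS1 tumours. The annotation release and the strand setting are not given in the sources used here. Antisense genes overlap exons of Wnt5a, Fzd5, Fzd6 and Sfrp2, at 1.2, 0.303, 0.627 and 1.38 CPM in hSS2 controls, so their reads may be shared. Gene positions and exon lengths came from GENCODE M21.

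Groups came from the sample titles. Each table was scaled by TMM and filtered by filterByExpr, and all genes were fitted with edgeR 4.0.16 (quasi-likelihood F test, R 4.3.3) on group, with Benjamini-Hochberg adjustment at 0.05 over all genes tested. The interaction was fitted on all 46 tumours, over genes in both tables, and its contrast took the 30 Pbrm1-fl and control tumours. The SE is the log2 fold change over the square root of F. Correlations used log2 CPM with a prior count of 2 and two-sided permutation tests. Alternatives were DESeq2 1.42.0, its size factors, no filter, each library left out and controls of the same mouse number range. Libraries of a group differed from each other beyond sampling noise. Each title names its own mouse, so libraries were taken as separate animals. The script was tested on simulated data.

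The members, their roles and the other lists were chosen with earlier results of these data known. Values by group are given for members called in a comparison, the 2 most abundant per kb of each role in hSS2 controls and all 9 target genes, and for at most 6 called other pathway genes per comparison.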

Additional observations from a re-analysis of the deposited data

Results flagged for a closer look

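The Pbrm1-fl effect of 2 members differed between hSS1 and hSS2 by the interaction test, Wnt5b at 1.55 and Wnt2b at -4.63 on the log2 scale. The latter rested on 1 hSS1 control, replicate 1.

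Among 140 sets of 4 to 8 tumours of 1 group, 1 for each of 28 members, 11 held a tumour apart from the rest by Dixon's 95% criterion, which chance alone meets in about 1 of 20 sets. The hSS1 Pbrm1-fl replicate 3 held 62.1 CPM of Wnt10a beside a median of 3.69 in the others, and hSS2 Pbrm1-fl replicate 3 held 58.3 CPM of Tcf7 beside 20.2. The hSS2 Arid1b-fl replicate 6 was low in both Wif1 (0.692 CPM beside 11.6) and Rnf43 (3.35 beside 12.4), and replicate 2 of that group in Wnt5b (0.875 beside 2.87). Low values were also those of Nkd2 in hSS2 Pbrm1-fl replicate 8 (0.853 beside 32.1), of Rspo3 in hSS2 Pbrm1-fl replicate 4 (10.7 beside 22.5), of Wnt16 in hSS2 Arid1a-fl replicate 1 (48.8 beside 167) and of Tcf7l2 in hSS1 control replicate 2 (88.8 beside 131). Apc was high in hSS2 Arid1b-fl replicate 4 (358 beside 294) and in hSS1 Pbrm1-fl replicate 4 (303 beside 277).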

How the results depend on the processing

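Counts of members called moved with the control tumours used and with the test. For hSS2 Pbrm1-fl, 9 members passed, and 2 did in a fit limited to the 8 floxed tumours and the 4 controls from their own range of mouse numbers (Wnt5b and Fzd5). Splitting the controls by range with all tumours in the fit gave 4. For Arid1a-fl, 5 passed, with 2 without a filter on low counts, 9 by DESeq2's Wald test, 0 in the same range alone and 3 with the muscle score as a covariate. For hSS1 Pbrm1-fl, 0 passed, and 2 by DESeq2's Wald test. For the interaction, 2 passed, with 0 without a filter and 4 by DESeq2's Wald test. It was 0 with the hSS2 tumours limited to the same range and every hSS1 tumour kept. Leaving out 1 library at a time gave 6 to 11 members for hSS2 Pbrm1-fl, 1 to 7 for Arid1a-fl and 0 to 3 for the interaction. No fold change of a member called in the hSS2 comparisons turned its sign under any alternative run. The median log2 fold changes of the target genes moved with the setting. Those near 0 changed sign, in Arid1b-fl from 0.044 to -0.13 with the controls split by range and in hSS1 Pbrm1-fl from 0.078 to -0.015 in the same range. The counts of Axin2 relations that passed, 3 and 7, held with a prior count of 0.5 and without TMM. The marker covariates, the split of the controls and the neighbouring pairs were chosen after seeing the data. No paired analysis was possible because the labels give no replicate numbers shared between groups and name no litters, and neighbouring mouse numbers were not taken as litters.

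Counts over all genes moved with the same settings. For hSS2 Pbrm1-fl 1476 genes passed by edgeR, 2247 by DESeq2's Wald test, 46 in the same range alone and 477 with the controls split by range. For Arid1a-fl 637 passed, 1706 by DESeq2's Wald test, 243 without a filter, 1405 with the controls split, 973 with the fibroblast score and 0 in the same range alone, where 3913 had an unadjusted p under 0.05. For Arid1b-fl 11 passed, 27 without a filter, 18 by DESeq2's Wald test, 6 with the muscle score and 0 both in the same range and with the split (524 and 529 at an unadjusted p under 0.05). For hSS1 Pbrm1-fl 1 passed, 1229 by DESeq2's Wald test, and 0 in the same range or with the fibroblast score (1913 and 2761 at an unadjusted p under 0.05). For the interaction 622 passed, 402 without a filter and 1153 by DESeq2's Wald test. With the hSS2 tumours limited to the same range and every hSS1 tumour kept, 6 passed. Leaving out 1 library at a time gave 1044 to 1920 genes for hSS2 Pbrm1-fl, 56 to 1416 for Arid1a-fl, 6 to 15 for Arid1b-fl, 0 to 4 for hSS1 Pbrm1-fl and 235 to 876 for the interaction. The cause of these differences was not tested.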
